A study of Mus musculus with 2 samples.

Results

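Translation initiation and elongation factors were described in G1E cells as the 62 protein-coding genes whose symbols begin with Eif1 to Eif6, Eef1 or Eef2, out of 21474 protein-coding genes measured. The Eif2ak kinases and the Y-linked Eif2s3y were left out. Of the 62 genes, 50 carry the Eif prefix and 12 the Eef prefix, and symbols were taken from GENCODE release M21. The rule uses gene names and no measured value. G1E is an immortalized mouse line that the labels call a Gata1- erythroid progenitor, from a male donor at a postnatal stage and an age of 0 days. Poly(A) RNA with a labelled size range above 175 was sequenced with single-end reads in 2 libraries, labelled biological replicates 1 and 2. Both libraries cite the same source material, so their spread may be technical, and the line is 1 line with no second condition.

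Translation of most mRNAs begins when the eIF4F complex (the cap-binding protein eIF4E, the scaffold eIF4G and the helicase eIF4A) brings an mRNA to the small ribosomal subunit. That subunit already carries eIF1, eIF1A, eIF3, eIF5 and the eIF2 complex, which delivers the initiator tRNA and is recharged with GTP by eIF2B. Once the start codon is found, eIF5B joins the large subunit. During elongation eEF1A brings each aminoacyl-tRNA, eEF1B exchanges its nucleotide, eEF2 moves the ribosome by a codon and eIF5A relieves stalls. Erythroid cells depend on eIF2 control, since a haem-regulated kinase ties globin synthesis to the supply of haem.

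The libraries held 31645051 expected counts (estimated reads per gene, which need not be whole) in replicate 1 and 56983558 in replicate 2. Effective lengths implied reads of 36 nt and 55 nt. Levels are given as TPM, in which counts are divided by transcript length and each library is brought to a common total. Because TPM depends on which transcripts reads are assigned to, levels with a gene's counts divided by the length of its longest coding transcript are given as well where they move a ratio by more than 1.5-fold or turn an order. In such bulk RNA, fewer expressing cells and less RNA per cell cannot be told apart. All 6 of the erythroid progenitor markers (Gata2, Kit, Klf1, Tal1, Gfi1b, Epor) reached 1 TPM in each library, with summed levels of 1993 and 1200 TPM. None of 8 markers of other cell types did so, with summed levels of 3.15 and 0.32 TPM. In replicate 1 alone Cd3e passed the cutoff, at 1.68 TPM (55 counts, against 1 in replicate 2). Col1a1 had 58 counts in replicate 1 and 1 in replicate 2. Gata1 itself was listed at 88.2 and 61.4 TPM, although the line is labelled Gata1-. These gene-level tables do not show which part of the gene the reads cover.

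Of the 62 translation factor genes, 58 reached 1 TPM in each library, against 42.5% of all protein-coding genes. At 10 TPM or more there were 54 (28.4% of protein-coding genes), at 100 TPM or more 32 (4.86%), and at 1000 TPM or more 4 (0.419%), which were Eef1a1, Eef2, Eif5a and Eef1g. Their median level was 114 TPM in replicate 1 and 136 TPM in replicate 2, while the median protein-coding gene stood at 0.55 and 0.12 TPM. Summed, the 62 genes took 3.67% of the TPM of protein-coding genes in replicate 1 and 3.55% in replicate 2. The 12 Eef genes summed to 17799 TPM in replicate 1 and 15805 TPM in replicate 2, more than the 13137 and 10858 TPM of the 50 Eif genes. Eef1a1 alone made up 36.9% of the summed level in each library. The order of the genes was similar in both libraries (Spearman correlation 0.918 over the 62 genes, which share annotation and gene length between libraries).

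**Figure D1:**
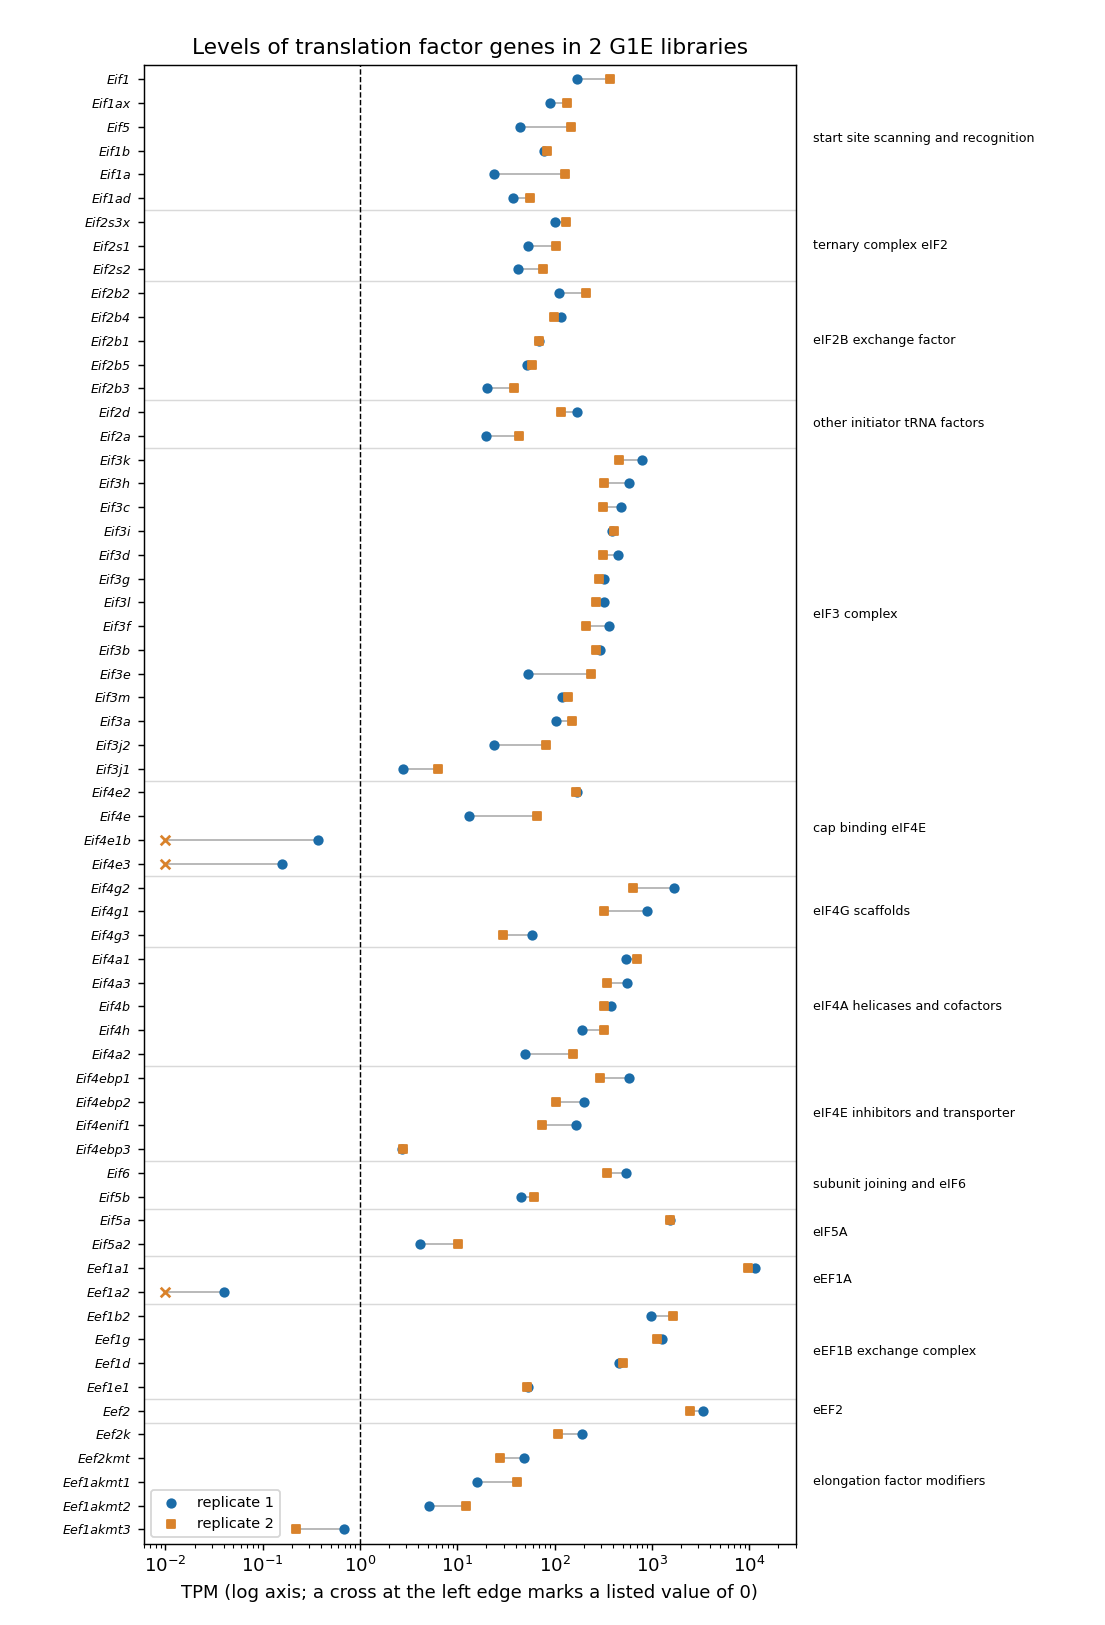
TPM of each of the 62 translation factor genes (log axis) in replicate 1 (circles) and replicate 2 (squares), grouped by role, with a grey line joining the libraries and a dashed line at 1 TPM. Eef1a1 lies furthest right at about 11421 and 9832 TPM, and Eef1a2, Eif4e1b, Eif4e3 and Eef1akmt3 lie left of the dashed line.

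Elongation factor mRNAs were the most abundant. Eef1a1 (ENSMUSG00000037742.10, chr9:78478449-78489151 on the minus strand, GRCm38), which encodes the main form of eEF1A, was at 11421 TPM in the replicate 1 library and 9832 TPM in the other (10626 ± 1124, SD, n = 2). Its level exceeded that of 99.99% of protein-coding genes. Its paralog Eef1a2, the form known from muscle and neurons, had 2 counts in replicate 1 and 0 in replicate 2. A count of 0 allows up to 3 counts, or 0.0326 TPM in replicate 2.

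Eef2 (ENSMUSG00000034994.9, chr10:81176631-81182498 on the plus strand), the translocation factor, was at 3323 and 2475 TPM (2899 ± 600, SD, n = 2), so Eef1a1 exceeded it 3.44-fold in replicate 1 and 3.97-fold in replicate 2. Eef2k, the kinase that inhibits eEF2 by phosphorylation, was at 193 and 108 TPM. Eef2 exceeded Eef2k 17.2-fold and 23.0-fold on TPM, and 49.8-fold and 54.2-fold over the longest coding transcripts. Thus the order Eef1a1, Eef2, Eef2k held in both libraries.

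The nucleotide exchange complex eEF1B has the catalytic subunits encoded by Eef1b2 and Eef1d and the structural subunit encoded by Eef1g. Eef1b2 was at 992 and 1631 TPM, Eef1g at 1286 and 1119 TPM and Eef1d at 460 and 507 TPM. The highest of these 3 genes exceeded the lowest 2.79-fold in replicate 1 and 3.22-fold in replicate 2. On TPM Eef1b2 and Eef1g changed order between the libraries, while Eef1d was the lowest in both. Over the longest coding transcripts Eef1g was the highest in both libraries (1440 and 1596, against 377 and 764 for Eef1b2), and the ratio of highest to lowest was 6.88 and 6.26. Eef1e1, whose product belongs to the multi-tRNA synthetase complex, was at 53.9 and 52.7 TPM. Eef1a1 exceeded Eef1b2 11.5-fold in replicate 1 and 6.03-fold in replicate 2 on TPM, and 31.4-fold and 15.6-fold over the longest coding transcripts.

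Lysine methyltransferases of elongation factors were far below Eef1a1 and Eef2. By mean TPM, Eef1akmt1 exceeded 81.2% of protein-coding genes, Eef1akmt2 67.4%, Eef2kmt 84.6% and Eef1akmt3 51.3%. Eef1akmt1 was at 16.1 and 41.5 TPM, Eef1akmt2 at 5.15 and 12.2 TPM and Eef2kmt at 48.4 and 27.4 TPM. Eef1akmt3 had 43 counts in replicate 1 and 27.2 in replicate 2, which gave 0.69 and 0.22 TPM, both under 1 TPM.

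Among the factors that scan for the start codon and recognise it, Eif1 was the highest at 170 and 375 TPM and Eif1ad, a gene with an eIF1A domain, the lowest by mean at 37.2 and 56.3 TPM. Over the longest coding transcripts Eif1ax was the lowest in both libraries (17.7 and 36.7, against 56.6 and 92.7 for Eif1ad). Eif1 exceeded its close paralog Eif1b (78.4 and 82.8 TPM) 2.16-fold in replicate 1 and 4.53-fold in replicate 2. The X-linked Eif1ax, which encodes eIF1A, was at 90.9 and 135 TPM and its autosomal paralog Eif1a at 23.7 and 128 TPM. Eif1ax exceeded Eif1a 3.83-fold in replicate 1 and 1.05-fold in replicate 2, so these genes did not stand apart in both libraries. Eif5, the GTPase-activating protein of eIF2, was at 44.2 and 147 TPM.

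All 3 subunits of eIF2 were expressed. Eif2s3x (gamma, which binds the initiator tRNA) was at 102 and 131 TPM, Eif2s1 (alpha, the subunit phosphorylated by stress kinases) at 52.9 and 103 TPM and Eif2s2 (beta) at 41.8 and 76.3 TPM. The order gamma, alpha, beta was the same in both libraries, and the highest exceeded the lowest 2.45-fold in replicate 1 and 1.71-fold in replicate 2 (3.78-fold and 1.84-fold over the longest coding transcripts).

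The 5 subunits of eIF2B, the exchange factor of eIF2, spread more widely, with a highest-to-lowest ratio of 5.77 in replicate 1 and 5.57 in replicate 2 on TPM. Over the longest coding transcripts the ratio was 14.2 and 6.64. Eif2b3, whose product sits with the catalytic subunit, was the lowest in both libraries at 20.2 and 38.1 TPM. Eif2b2 was at 112 and 212 TPM and Eif2b4 at 116 and 99.8 TPM. Both belong to the regulatory core, as does Eif2b1 at 69.2 and 69.6 TPM. Over the longest coding transcripts Eif2b2 was above Eif2b4 in both libraries (169 and 177, against 122 and 87.4). Eif2b5, the catalytic subunit, was at 52.4 and 59.2 TPM. Eif2s1 exceeded Eif2b5 1.01-fold and 1.73-fold, so the eIF2 alpha subunit and the catalytic subunit of its exchange factor did not stand apart in both libraries. Eif2d and Eif2a, which can deliver initiator tRNA without eIF2, were at 170 and 117 TPM and at 19.9 and 42.9 TPM.

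The eIF3 complex is the scaffold of the initiation machinery on the small subunit. Without its loosely bound j subunit, its 12 genes had a median of 343 TPM in replicate 1 and 278 TPM in replicate 2. Eif3k was the highest in both libraries at 801 and 460 TPM. Eif3e was the lowest in replicate 1 at 53.9 TPM and was at 235 TPM in replicate 2, and Eif3m (118 and 138 TPM) and Eif3a (103 and 151 TPM) were low in both. The other 8 genes were Eif3h (582 and 323 TPM), Eif3c (481 and 317), Eif3d (449 and 314), Eif3i (388 and 409), Eif3f (359 and 212), Eif3l (326 and 270), Eif3g (319 and 287) and Eif3b (291 and 269), and each was above 200 TPM in both libraries. Among the 12 genes the SD of log2 TPM was 1.14 in replicate 1 and 0.51 in replicate 2, beside a spread between libraries of 0.56 pooled over the same genes. The spread among subunits in replicate 2 was thus no larger than the spread between libraries. Eif3j1 (2.75 and 6.3 TPM) and Eif3j2 (24.1 and 82.1 TPM) both encode the j subunit, and 94.3% of the 36-nt words of Eif3j2 recur in other genes, so how reads were split between these copies is uncertain. The ratio of Eif3j1 to Eif3j2 was 0.114 and 0.0768 on TPM, and 0.0993 and 0.0359 over the longest coding transcripts.

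**Figure D2:**
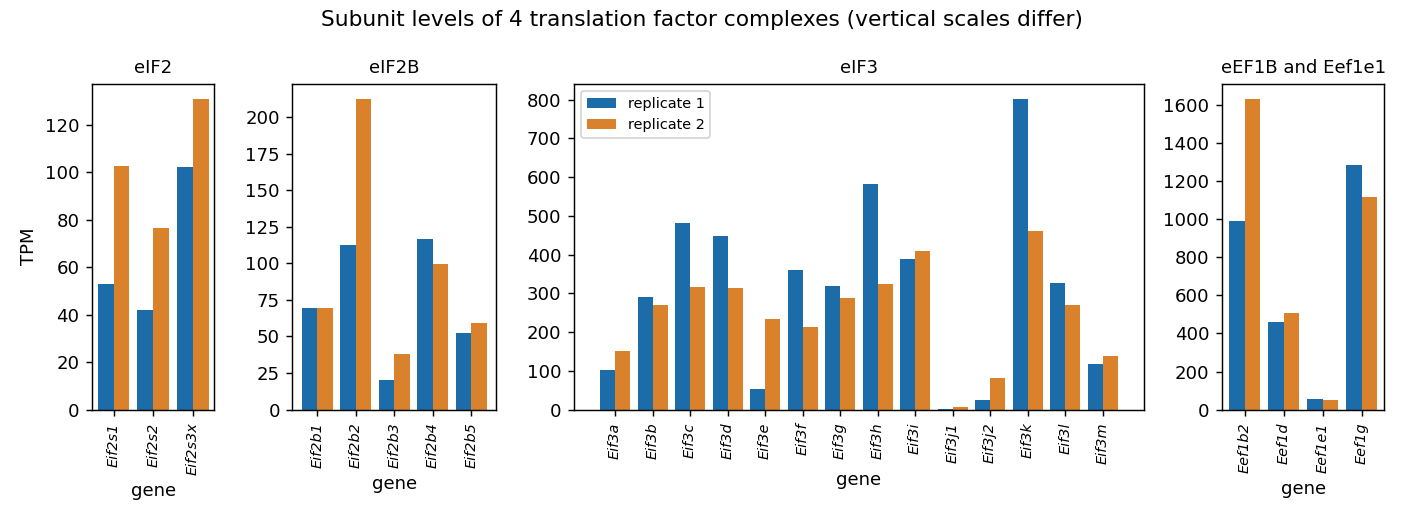
TPM of each subunit gene of eIF2, eIF2B, eIF3 and eEF1B in replicate 1 (left bar) and replicate 2 (right bar), each panel with its own vertical axis from 0. Eif3k is the tallest eIF3 gene in both libraries, and the bars of Eif3e are at 53.9 TPM (replicate 1) and 235 TPM (replicate 2).

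Of the cap-binding genes, Eif4e2 was higher than Eif4e on TPM in both libraries, but over the longest coding transcripts only in replicate 1. Eif4e (ENSMUSG00000028156.8, chr3:138526179-138559696 on the plus strand), which encodes the cap-binding subunit of eIF4F, was at 13.3 and 65.4 TPM (39.3 ± 36.8, SD, n = 2). Eif4e2, which encodes the cap-binding repressor 4EHP, was at 172 and 165 TPM (168 ± 5.33). The ratio of Eif4e to Eif4e2 was 0.0771 in replicate 1 and 0.397 in replicate 2. Over the longest coding transcripts the ratio was 0.225 in replicate 1 and 1.08 in replicate 2, where the order turned, so the genes no longer stood apart in both libraries (mean difference -0.99 on the log2 scale). Eif4e1b, the oocyte form, had 11 counts in replicate 1 and 0 in replicate 2, and Eif4e3 had 9 and 0, so both were under 1 TPM.

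The eIF4E-binding proteins compete with eIF4G for eIF4E and are released by mTOR phosphorylation. Eif4ebp1 was at 583 and 291 TPM, Eif4ebp2 at 200 and 104 TPM and Eif4ebp3 at 2.69 and 2.77 TPM. Eif4ebp1 exceeded Eif4ebp2 2.91-fold in replicate 1 and 2.80-fold in replicate 2, a ratio that moved little between the libraries. Eif4ebp1 also exceeded Eif4e, the mRNA of its target, 43.9-fold in replicate 1 and 4.45-fold in replicate 2. The direction was shared and the size was not. Eif4enif1, the transporter that carries eIF4E to the nucleus, was at 165 and 73.8 TPM.

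Among the scaffolds, Eif4g1 was at 900 and 322 TPM, Eif4g2 (the form that lacks the eIF4E-binding site) at 1702 and 641 TPM and Eif4g3 at 58.6 and 29.2 TPM. Eif4g1 exceeded Eif4g3 15.4-fold and 11.0-fold. The ratio of Eif4g1 to Eif4g2 was 0.529 and 0.502, just short of a 2-fold difference, and its direction depended on transcript length as described further on. Of the helicases, Eif4a1 was at 538 and 710 TPM and Eif4a2 at 49.4 and 154 TPM, a ratio of 10.9 in replicate 1 and 4.61 in replicate 2 (22.4 and 8.15 over the longest coding transcripts). Eif4a3, the helicase of the exon junction complex, was at 552 and 344 TPM. The helicase cofactors Eif4b (380 and 319 TPM) and Eif4h (194 and 324 TPM) did not stand apart in both libraries, since their ratio was 0.509 for Eif4h over Eif4b in replicate 1 and 1.02 in replicate 2.

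Eif5a, whose product carries the amino acid hypusine and helps ribosomes through difficult stretches, was at 1531 and 1549 TPM (1540 ± 12.2, SD, n = 2). Its paralog Eif5a2 was at 4.11 and 10.3 TPM, which is 373-fold lower in replicate 1 and 151-fold lower in replicate 2. Eif6, which keeps the ribosomal subunits apart, was at 546 and 348 TPM and exceeded Eif5b, which joins them, at 44.8 and 61.7 TPM. The ratio of Eif5b to Eif6 was 0.082 in replicate 1 and 0.178 in replicate 2 (0.1995 and 0.2475 over the longest coding transcripts).

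Over the 19 pairs of genes compared within each library, 15 differed by 2-fold or more in the same direction in both, on the scale of log2(TPM + 1), which understates the folds of low genes. The same 15 pairs had a mean difference larger than 1.07, the 95% bound for a mean difference computed from the spread between the libraries (SD 0.55, pooled over 9118 protein-coding genes). The other 4 were Eif4g1 over Eif4g2, Eif1ax over Eif1a, Eif4h over Eif4b and Eif2s1 over Eif2b5. The pairs were chosen with earlier results of these data known, and the share over other gene pairs was not computed. The count is therefore not read as particular to these pairs. Passing the bound adds little, since 2-fold or more in both libraries already gives a mean of 1 or more on that scale. The bound takes 1 spread for all pairs, while the SD of the difference ran from 0.0431 (Eif4ebp1 over Eif4ebp2) to 2.28 (Eif4ebp1 over Eif4e). No p-value was given, since an exact sign-flip permutation test over 2 libraries cannot go below p = 0.5 (two-sided).

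**Figure D3:**
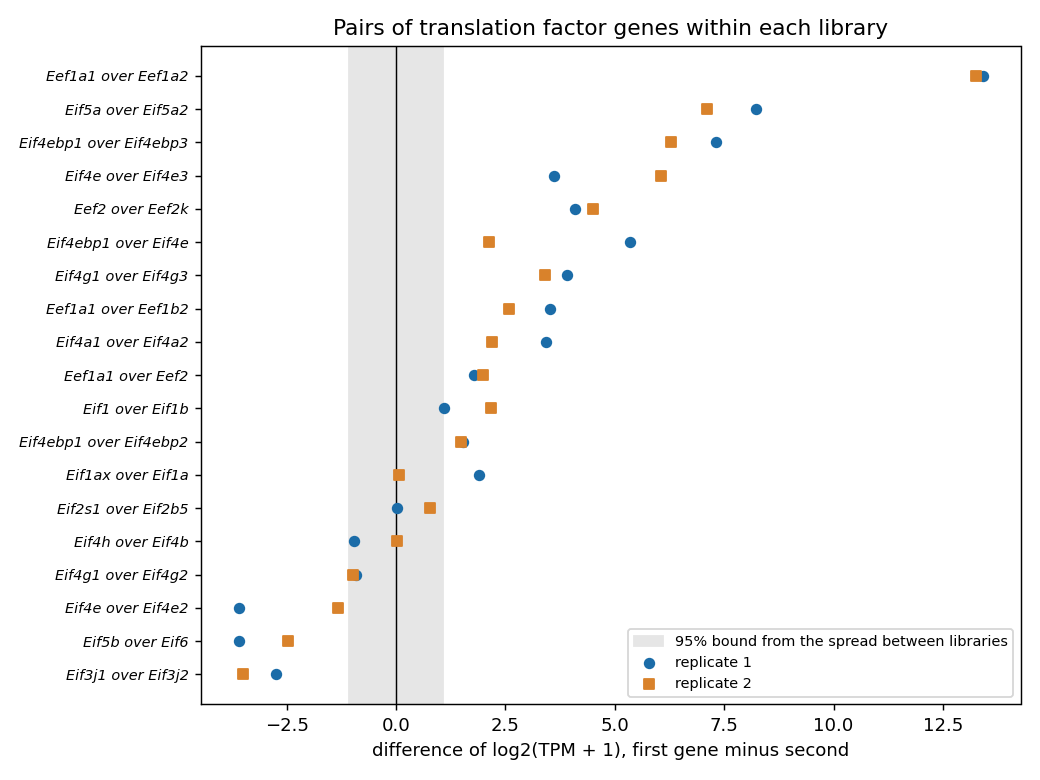
Difference of log2(TPM + 1) between the genes of each of 19 pairs in replicate 1 (circles) and replicate 2 (squares), with the grey band showing the 95% bound of 1.07 from the spread between libraries. The pairs Eif1ax over Eif1a, Eif2s1 over Eif2b5, Eif4h over Eif4b and Eif4g1 over Eif4g2 have means inside the band.

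Several levels rested on short transcripts. Of 18 translation factor genes with transcripts examined, 13 had the same leading transcript (the one given the largest share of the gene's TPM) in both libraries, and over the 58 expressed genes 43 did so, 22 of which have a single transcript in the tables. A single transcript leads by definition, and of the 36 genes with more than 1 transcript 21 kept their leader. The share over all protein-coding genes is not given here, so these counts are not read as particular to translation factors. Among Eif4g1 transcripts, the 635-nt Eif4g1-208 was given 42.0% of the gene's TPM in replicate 1 and 0% in replicate 2, where the 5440-nt Eif4g1-203 led with 43.0%. Transcripts under 1000 nt held 54.1% of Eif4g1 in replicate 1 and 6.19% in replicate 2. For Eif4g2 they held 92.5% and 69.3%.

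On TPM, Eif4g1 was 2.80-fold and Eif4g2 2.65-fold higher in replicate 1, while their scaled counts differed 1.20-fold and 1.08-fold. With counts divided by the length of the longest coding transcript, Eif4g1 was at 627 and 457 and Eif4g2 at 461 and 373 on the TPM scale. Eif4g1 then lay above Eif4g2 in both libraries, the reverse of the order on the deposited TPM.

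The leading transcript also differed between the libraries for Eif5a, Eif6 and Eif4a2. Eif5a-213 (1281 nt) was given 58.2% of Eif5a in replicate 1 and 7.61% in replicate 2, and Eif5a-210 (1343 nt) 21.2% and 80.8%, although the gene's TPM differed only 1.01-fold. Eif6 was led by the 402-nt Eif6-205, a processed transcript, in replicate 1 (57.9%) and by the 1500-nt coding Eif6-201 in replicate 2 (46.5%). Eif4a2 was led by Eif4a2-204, annotated as a target of nonsense-mediated decay, in replicate 1 (20.1%) and by the coding Eif4a2-202 in replicate 2 (29.95%). Eif5, by contrast, kept Eif5-202 as its leader with 82.7% and 51.7%, while the shorter Eif5-201 held 17.3% and 48.3%.

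For some genes little of the TPM was assigned to coding transcripts. Protein-coding transcripts held 5.77% and 10.2% of Eif1ax, whose leader in both libraries was annotated as a retained intron, and 1.96% and 16.4% of Eef1b2. Eif1ax was at 17.7 and 36.7 and Eif1a at 35.9 and 151 with counts divided by the length of the longest coding transcript, which reversed the order of that pair. Eif5b, Eif4a3, Eef1b2 and Eef1akmt2 were also led in both libraries by a transcript annotated as not coding, and the leaders of Eif2b4 have no match in M21. Of the other genes examined, Eef2, Eif2s1, Eif3a, Eif4e, Eif4ebp1 and Eif4h had a single transcript. Eef1d (46.8% and 67.9% for Eef1d-207), Eif2b5 (87.1% and 72.2% for Eif2b5-201), Eif4a1 (90.3% and 85.2% for Eif4a1-213), Eif4e2 (79.6% and 65.9% for Eif4e2-204) and Eif4g3 (44.1% and 69.1% for Eif4g3-205) kept a coding leader. Eef1a1-201 held 49.8% and 56.4% of Eef1a1, beside 25.2% and 13.2% for the 505-nt Eef1a1-204 and 24.8% and 29.8% for the 845-nt Eef1a1-203.

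**Figure D4:**
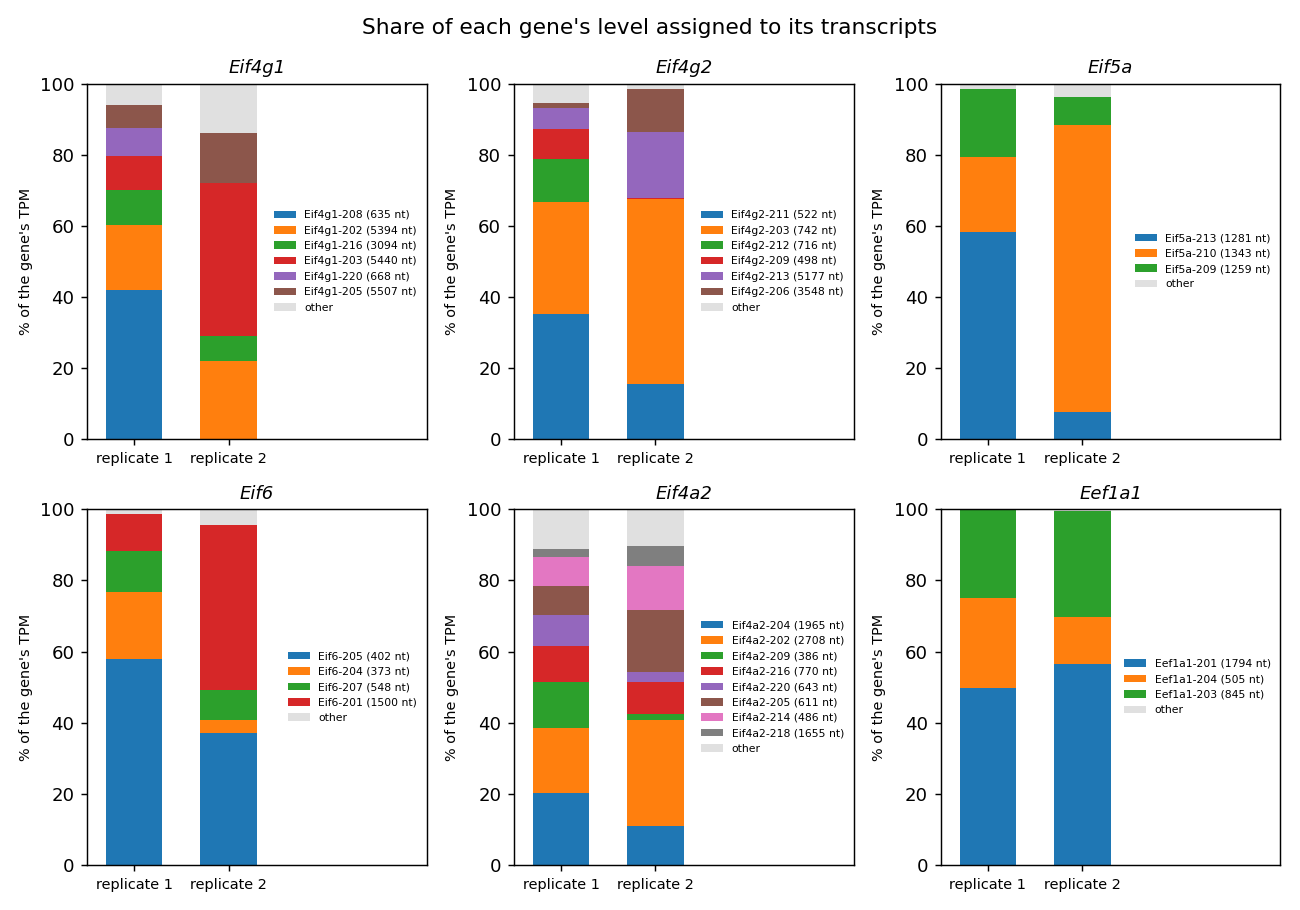
Share of the gene's TPM (%) assigned to each transcript of Eif4g1, Eif4g2, Eif5a, Eif6, Eif4a2 and Eef1a1 in each library, with transcript lengths in nt and all smaller transcripts as other. The leading transcript differs between the libraries for Eif4g1, Eif4g2, Eif5a, Eif6 and Eif4a2 and is Eef1a1-201 in both for Eef1a1.

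Sequence shared with other genes limits how well reads can be assigned to some translation factors. In the M21 transcripts, 13 of the 62 genes shared 20% or more of their 36-nt words with other genes, and 3 shared 50% or more, namely Eif3j2 (94.3%), Eif4ebp3 (66.1%) and Eif3j1 (52.9%). These shares were computed for the 62 genes only, so no share over all protein-coding genes stands beside them. They describe M21, while the deposited values derive from release M4. Some sharing genes have no deposited values, among them AC115631.1 for Eif4ebp3 (66.1%), Gm4366 for Eef1g (42.9%) and AC122253.2 for Eif3h (25.7%). For these no split of reads is listed. The median share was 5.50% at 36 nt and 3.00% at 55 nt, and 55 genes had a lower share at the longer read length. The processed pseudogene Eif4a-ps4 differs from the 1218 coding bases of Eif4a1 at 1 position. It was given 8376 counts in replicate 1 and 9508 in replicate 2, equal to 39.2% and 18.2% of those of Eif4a1. Gm13456, a processed pseudogene of Eef1a1, differs by 44 substitutions or gaps over 1386 coding bases and was given 16453 and 7225 counts, or 5.15% and 1.26% of those of Eef1a1. The following coding stretches of 60 bases show how alike each gene and its copy are, with the differing bases in capitals (GRCm38; Eif4a1 at chr11:69668694-69668753 minus strand, Eif4a-ps4 at chr1:60704446-60704505 plus strand, Eef1a1 at chr9:78479465-78479524 minus strand, Gm13456 at chr2:40556509-40556568 plus strand).
Eif4a1: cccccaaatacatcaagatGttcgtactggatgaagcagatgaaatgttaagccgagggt
Eif4a-ps4: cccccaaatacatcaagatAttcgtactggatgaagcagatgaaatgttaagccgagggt
Eef1a1: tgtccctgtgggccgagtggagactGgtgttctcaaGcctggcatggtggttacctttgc
Gm13456: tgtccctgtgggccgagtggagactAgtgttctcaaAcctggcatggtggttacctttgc
A read from the Eif4a1 stretch that misses the single capital matches both genes equally. Eif3d shares 39.0% of its words with Gm17638, annotated as antisense, which had 261 and 381 counts, and Eif5b shares 15.1% with the coding gene Rev1. Eif4e shares 6.92% with the processed pseudogene Gm7327, given 280 and 290 counts, or 31.7% and 3.45% of those of Eif4e. Eif1 shares 13.1% with the coding gene Emd, whose counts were 89.7% and 23.0% of those of Eif1. How far the split of reads bears on the ratios of Eif4e and Eif1 was not tested.

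Between the libraries, the counts of 18 genes differed by 2-fold or more after scaling, among the 59 with at least 50 counts. Higher in replicate 2 were 17 genes, against 19.9% of 10467 protein-coding genes, and higher in replicate 1 was 1, Eef1akmt3, against 8.3%. The 17 included both other eEF1A methyltransferases among the 62 genes (Eef1akmt1, Eef1akmt2) and start codon factors (Eif1, Eif1a, Eif1ax, Eif5). They also included factors of initiator tRNA delivery (Eif2s1, Eif2s2, Eif2a, Eif2b3) and eIF4F factors (Eif4e, Eif4a2, Eif4h). The other 4 were Eef1b2, Eif3e, Eif3j2 and Eif5a2. The largest differences were those of Eif4e, with 882 counts in replicate 1 and 8382 in replicate 2 (6.05-fold after scaling), Eif3e, with 1895 and 15816 (5.31-fold), and Eif1a, with 1566 and 11746 (4.77-fold). With 1 library against 1, these are differences between libraries and have no replicate check. The median log2 ratio of replicate 2 over replicate 1 was 0.34 over the 59 genes and 0.26 over all protein-coding genes tested.

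The scaling and the base composition both moved with these calls. Scaling over genes with enough reads shifted all log2 ratios by -0.25, left 13 of the 17 genes past 2-fold, and made the shares of protein-coding genes 14.1% higher in replicate 2 and 11.3% higher in replicate 1. Eef1b2, Eif1ax, Eif2s1 and Eif4h were then within 2-fold. On TPM as deposited, 12 genes were higher in replicate 2 and 6 in replicate 1, while the shares of protein-coding genes turned over, to 11.9% higher in replicate 2 and 14.8% higher in replicate 1. The transcripts of the 17 genes had a median GC content of 42.2%, those of the 41 genes within 2-fold 52.2%, and those of all protein-coding genes tested 50.04%. The Spearman correlation of GC content with the log2 ratio was -0.61 over the 59 genes and -0.48 over the 10467 protein-coding genes, which share the same 2 libraries. With the trend on GC content over all genes subtracted, 10 genes were higher in replicate 2 and 1 in replicate 1, against 10.1% and 8.39% of protein-coding genes. Of these 10, Eif1ad was not among the 17 before. Of the 17, 9 remained past 2-fold, and Eif1ax, Eif2a, Eif2s1, Eif2s2, Eif3e, Eif3j2, Eif5 and Eif5a2 did not. Eif4e had the highest ratio on that scale too, 1.81 on the log2 scale.

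**Figure D5:**
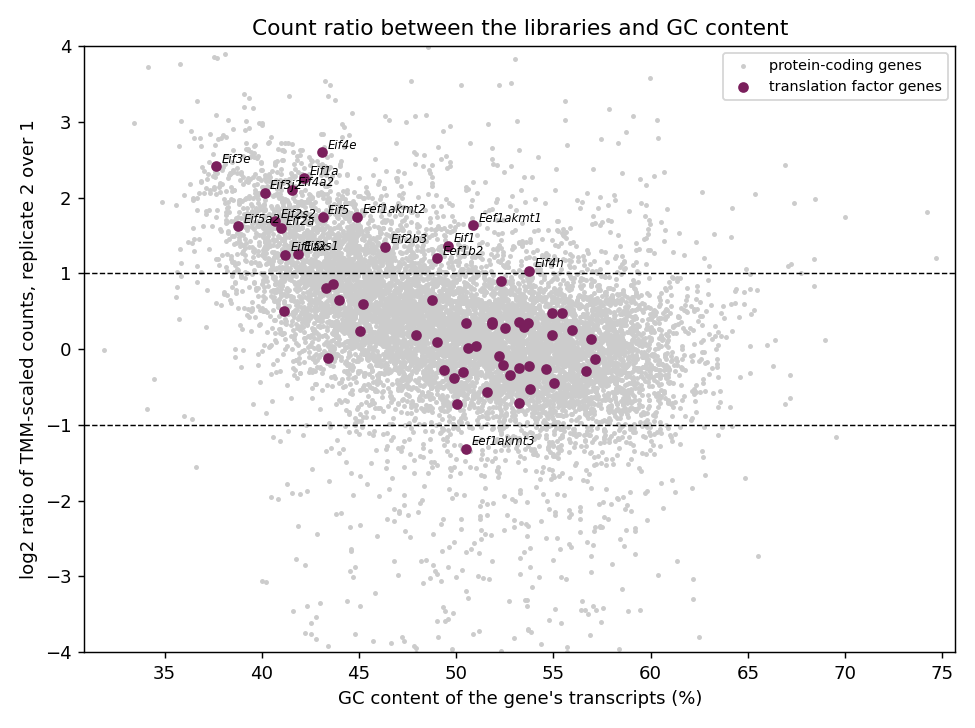
Log2 ratio of scaled counts, replicate 2 over replicate 1, against GC content of the gene's transcripts (%), for 59 translation factor genes (dark points) over protein-coding genes with at least 50 counts (grey; 311 genes beyond 4 on the vertical axis are not drawn). The named points lie outside the dashed lines at 2-fold, and the 17 above have a median GC content of 42.2%.

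Many mRNAs of the translation machinery are known to begin with a C followed by a run of C and T, the terminal oligopyrimidine element through which mTOR and LARP1 act. A C followed by 7 or more C or T letters, on the transcribed strand and starting within 10 bases of an annotated RefSeq start (GRCm38.p6), was found for 8 of the 46 genes in the promoter table, against 9.79% of 16317 protein-coding genes. The 8 genes were Eef1a1, Eif3l, Eif3f, Eif2b2, Eif4enif1, Eif2s3x, Eif2b5 and Eif4e. The run of Eif2b2 begins 5 bases after the annotated start, and those of Eif2b5 and Eif4e 10 bases before it. With 8 letters, the Eif4e run ends before the annotated start. Eif4enif1 has runs 6 bases after or 10 bases before its annotated starts. The windows of 30 bases below show the run in capitals for the 4 whose run begins 1 to 5 bases before the annotated start (Eef1a1 at chr9:78481710-78481739 minus strand, Eif3l at chr15:79075208-79075237 plus strand, Eif3f at chr7:108934400-108934429 plus strand, Eif2s3x at chrX:94212637-94212666 minus strand).
Eef1a1: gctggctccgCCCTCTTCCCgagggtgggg
Eif3l: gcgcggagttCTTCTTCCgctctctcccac
Eif3f: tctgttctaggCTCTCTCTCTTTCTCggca
Eif2s3x: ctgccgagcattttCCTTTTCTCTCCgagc
Annotated starts are not starts measured in these cells, so the letters describe the reference only. The median level was 141 TPM for the 8 genes with the run and 128 TPM for the 38 without it. Eef1a1 had a run of 10 letters near its annotated start, while no such run was found at the annotated starts of Eef2, Eef1b2 and Eif5a. Whether any of these runs begins an mRNA was not tested.

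Most of the listed genes that act with these factors were also expressed. Of all protein-coding genes, 42.5% reached 1 TPM in each library. Of 14 genes of mRNA binding and mTOR or MNK control, 14 reached 1 TPM in each library, with the poly(A)-binding proteins Pabpc1 (2588 and 1507 TPM) and Pabpc4 (534 and 528 TPM) and the growth-related Tpt1 (871 and 993 TPM) as the highest. Of 8 genes of termination, recycling and reinitiation, 7 did so. The release factors Gspt1 (106 and 377 TPM) and Etf1 (57.6 and 80.0 TPM) and the reinitiation factor Denr (43.6 and 134 TPM) were the highest, and Gspt2, a paralog of Gspt1, had 2 counts and 0 counts. All 9 genes that build hypusine on eIF5A or diphthamide on eEF2 were expressed. The hypusine enzymes Dohh (91.0 and 104 TPM) and Dhps (54.5 and 37.6 TPM) and the diphthamide gene Dph3 (39.8 and 45.6 TPM) had the highest mean levels of them, each far below the level of Eif5a and Eef2.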

How the data were processed

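Gene and transcript tables of 2 poly(A) RNA-seq libraries of G1E cells were used, 1 of each per library, not pooled. Per the deposited notes, values derive from transcriptome alignments to mm10 with annotation release M4; the aligner and quantifier were not given in the sources used here, and the column names are those of RSEM. The authors deposited expected counts without normalisation, TPM per effective length, FPKM per kilobase of effective length, a signal column with the posterior mean of TPM, and, for each transcript, the percent of its gene's TPM. Whether strand was used is not given in those sources, so overlapping antisense genes cannot be told apart.

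Identifiers were matched without version to GENCODE M21 (GRCm38, the same assembly); 42462 matched and 884 did not. Entries that name no gene held 0.0363% and 0.00942% of counts and were left out of library sizes. Deposited TPM totals include those entries; protein-coding genes held 84.4% and 75.1% of TPM. For calls between libraries, rounded expected counts were scaled by edgeR 4.0.16 TMM over all annotated genes, with 0.5 added, and called at 2-fold among genes with at least 50 counts. Pairs used log2(TPM + 1). The GC trend was a lowess fit (statsmodels 0.14.6, span 0.3). Alternatives were DESeq2 1.42.0 size factors, other scales, thresholds and filters, and each library left out; TMM over genes with enough reads and counts over the longest coding transcript were added after seeing the data.

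The genes, lists and pairs were chosen with earlier results of these data known. Named with values are each role's highest and lowest gene, the genes of the 19 pairs, genes under 1 TPM or apart between libraries, subunits of the complexes, the genes with transcripts examined, and up to 3 highest and 2 genes under 1 TPM of each pathway list. The other genes are described with them.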

Additional observations from a re-analysis of the deposited data

How the results depend on the processing

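The count of expressed genes lay between 55 and 58 under 9 alternatives. The median level of 128 TPM became 162 with TPM rescaled over protein-coding genes, 144 over expressed members only and 143 without the 3 genes that share 50% or more of their 36-nt words; with 1 library left out it was 114 to 136. The 18 genes apart between the libraries became 11 with the GC trend subtracted, and lay between 14 and 26 under the other 7 alternatives. Of 114 alternatives for single pairs, 109 kept direction and call, but some of these settings could hardly change a call. FPKM keeps ratios within a library apart from the pseudocount, and a pair apart in both libraries stays apart with either left out. Counts over the longest coding transcript took Eif4e over Eif4e2 out of the pairs apart. The mean difference of Eif4g1 over Eif4g2 became 0.37 and that of Eif1ax over Eif1a -1.50 with counts over the longest coding transcript, and that of Eif4h over Eif4b lay between -0.97 and 0.022 with 1 library left out; Eif1ax over Eif1a was apart (1.89) without replicate 2. The number of pairs apart was 13 to 16, and 15 to 16 with 1 library left out, where it cannot fall below 15. The leading transcript was shared by 15 genes with coding transcripts only, and the pyrimidine run was found for 6 genes within 5 bases and 11 with 5 or more letters (5.26% and 22.4% of protein-coding genes). Genes at 0 counts are known only to lie under 3 counts. No paired analysis was possible because the study has 1 group.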
